A study of Mus musculus with 15 samples.

Results

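Genomic imprinting leaves 1 parental copy of a gene active and the other silent, and the genes described here are the members of this class that lie outside the Dlk1-Dio3 domain. They are 35 named genes, each found on the array by its current symbol, with 58 probes between them. 55 of those probes, and all 35 genes, passed the filter on dim signal, among 30820 gene names on the array and 21185 genes tested. Of the members, 17 are known to be expressed from the paternal copy, 17 from the maternal copy and 1, Gnas, from both copies by transcript. The assignment of copies is textbook knowledge of the mouse, and many of the maternal members are imprinted mainly in placenta or brain. The array measures the RNA of both copies together, so no value below says which copy it came from.

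The RNA came from mouse embryonic stem (ES) cells and from EB9, the labels' name for embryoid bodies, the aggregates in which ES cells differentiate. The knockdown groups are those labelled with 1 hairpin, named KD33, against Cbx7, a chromodomain subunit of Polycomb repressive complex 1. The 4 groups were knockdown EB9 (4 arrays), control EB9 (4 arrays), knockdown ES cells (4 arrays) and control ES cells (replicates 2, 3 and 4). The labels list no treatment for the controls, while the series' design text calls the ES control by the short form shCtr. Cell line, days of culture, feeders and whether the hairpin line was 1 clone are not given in the sources used here, and a single hairpin cannot separate its target from its other effects.

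Imprinted genes lie in clusters that share a control region, a stretch of DNA methylated on 1 parental copy only. That mark is set in the germ line and kept through early development by DNA methyltransferase 1 and by the zinc finger proteins Zfp57 and Zfp445, which recognise methylated DNA. Several clusters also carry a long noncoding RNA that silences neighbours in cis, and in the Kcnq1 cluster Polycomb proteins are known to take part in placenta. The cluster genes include growth promoters such as Igf2 and growth inhibitors such as H19, Phlda2 and Grb10, and many are switched on in mesoderm, placenta and neurons.

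The probes that carry the main results are shown first, because neighbouring genes here are read from opposite strands of the same stretch. The first 30 bases of the 60-base Mest and Copg2 probes are printed, with the probe positions of build mm9 from the array files.
Mest A_55_P2151868, chr6:30692160-30692219, plus strand: aagccctgagatagttgtgcttttacatgg
Mest A_55_P2090025, chr6:30697385-30697444, plus strand: cctctcatttctgtgacatctgaccaaata
Mest A_51_P124535, chr6:30698279-30698338, plus strand: tctgaaagacctaagagcaaatggtgctga
Copg2 A_52_P48777, chr6:30698491-30698550, minus strand: atgcttctatttaatgtgtgaaaaactctt
Copg2 A_55_P2001773, chr6:30698828-30698887, minus strand: tgtggatgttatcttggcttctgtgggata
The nearer Copg2 probe starts 153 bases past the end of the last Mest probe, and the other starts 490 bases past it, on the other strand. The single measured probe of H19, a noncoding RNA, is shown whole.
H19 A_55_P1961127, chr7:149761492-149761551, minus strand: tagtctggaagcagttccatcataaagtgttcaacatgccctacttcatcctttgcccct
Plagl1 has 4 measured probes, of which the 2 on the 3′ side behaved alike and unlike the others. The first 30 bases of each are printed, and capitals mark the bases that fall in a run of 26 shared by those 2, so they are not independent probes.
Plagl1 A_55_P1961965, chr10:12848421-12848480, plus strand: actgccagtgccacagccactaccacagcc
Plagl1 A_55_P2153251, chr10:12848851-12848910, plus strand: attttcacagctggctccaacactgctatc
Plagl1 A_55_P1961968, chr10:12850832-12850891, plus strand: ATCTCCTAACCTTTGATGACTCTGTActtt
Plagl1 A_52_P532456, chr10:12851280-12851339, plus strand: tgcccagtatatATCTCCTAACCTTTGATG
No other pair of probes of 1 member shared a run of over 12 bases.

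The promoters of Mest, Plagl1 and Nnat are printed because they fell most in knockdown EB9 among the paternally expressed members, and all 3 are known to be methylated on the maternal copy. Each window of 300 bases spans a RefSeq gene start, from RefSeq's GRCm38.p6 build. Capitals mark the letters TGCCGC on either strand (GCGGCA when it lies on the other strand), the core that Zfp57 is known to bind when methylated.
Mest, chr6:30737800-30738099, plus strand: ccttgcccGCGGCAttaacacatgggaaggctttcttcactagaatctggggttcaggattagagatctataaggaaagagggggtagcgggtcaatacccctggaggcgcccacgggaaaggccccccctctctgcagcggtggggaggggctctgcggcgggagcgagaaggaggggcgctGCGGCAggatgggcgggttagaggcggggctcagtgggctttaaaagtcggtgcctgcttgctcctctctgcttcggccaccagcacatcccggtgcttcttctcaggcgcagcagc
Plagl1, chr10:13090582-13090881, plus strand: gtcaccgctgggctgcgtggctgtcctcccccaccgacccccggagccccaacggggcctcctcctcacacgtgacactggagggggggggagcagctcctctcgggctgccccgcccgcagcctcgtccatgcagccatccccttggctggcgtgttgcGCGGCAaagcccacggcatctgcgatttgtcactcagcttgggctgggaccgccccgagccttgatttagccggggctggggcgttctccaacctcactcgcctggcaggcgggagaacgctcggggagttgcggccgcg
Nnat, chr2:157559828-157560127, plus strand: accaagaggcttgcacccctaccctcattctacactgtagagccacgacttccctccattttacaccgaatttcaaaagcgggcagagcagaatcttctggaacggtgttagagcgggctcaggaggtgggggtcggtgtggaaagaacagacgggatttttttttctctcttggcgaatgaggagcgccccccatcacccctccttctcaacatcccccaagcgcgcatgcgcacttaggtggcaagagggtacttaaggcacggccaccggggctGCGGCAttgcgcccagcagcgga
The printed Mest window held 2 matches and 17 CpG dinucleotides, the Plagl1 window 1 match and 26 CpG, and the Nnat window 1 match and 17 CpG. RefSeq's table had 46 windows for 30 of the 35 members. The letters were found in 12 of those 46 windows (26.1%) and in 11.6% of the table's 32851 windows, and the median number of CpG was 16.5 in the members' windows and 7 in all. Windows of 1 gene can overlap: a Mest window at chr6:30737803-30738102 holds the same 2 matches as the printed one, and both count among the 12. Another Mest window, at chr6:30733256-30733555, had 8 CpG and 0 matches. A match is a description of these letters and says nothing of binding in these cells.

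Over the 15 arrays the 75th percentile of the processed signal lay between 1483.2 and 2531.1, between 62.53% and 75.36% of features lay well above background, and none was saturated. A level below is the log2 of a probe's signal over the 75th percentile of its own array, so levels of different probes cannot be compared. Values are listed in the order of the replicate numbers. A gene passed where limma's adjusted p, over all 21185 genes, was under 0.05. The arrays lay on 4 slides, each with 1 array of every group except that the fourth slide had no ES control, so differences are also given with the slide as a block and within slides. Each group held the same position on every slide (knockdown EB9 2, control EB9 1, knockdown ES cells 4, control ES cells 3). Position and group therefore cannot be told apart, with or without the slide as a block. The targeted gene was dim: Cbx7 probe A_55_P1980401 was lower by 1.91 in knockdown ES cells with an SE of 1.23 (adjusted p 0.256), or by 1.41 with the slide as a block (adjusted p 1e-04). In EB9 it differed by -0.27 (adjusted p 0.92, or 0.221 with the slide as a block). The second Cbx7 probe, well above background on all 15 arrays, differed by -0.16 in EB9 (adjusted p 0.708) and -0.13 in ES cells (adjusted p 0.733) and did not pass with the slide as a block. A lower Cbx7 level thus passed with 1 probe, in ES cells and with the slide as a block, and knockdown below means the group so labelled. ES cell markers (10 genes such as Pou5f1 and Nanog) were lower in EB9 than in ES cells, 10 of 10, in knockdown and in control. Between knockdown and control, 4 of the 10 were higher and none lower in EB9 (Klf2 0.71, Tdgf1 0.45, Zfp42 0.31 and Esrrb 0.29). Their summed level, in multiples of the 75th percentile, was 26.4 to 30.3 in knockdown EB9, 20.9 to 25.6 in control EB9, 323 to 391 in knockdown ES cells and 358 to 370 in control ES cells, so the EB9 groups did not overlap. In ES cells 1 was higher and 2 lower. The part of such cells in the EB9 results below was not tested.

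Knockdown changed imprinted genes in both directions and differently at the 2 stages. In EB9, 4 of 35 members were higher (11.4%, against 7.96% of all genes) and 9 were lower (25.7%, against 7.20%). In ES cells, 13 of 35 were higher (37.1%, against 22.0%) and 9 lower (25.7%, against 16.5%), and 2 of those 9, Igf2 and Zim1, were not well above background on any ES array. The members' median difference was -0.08 in EB9 and 0.08 in ES cells, where the median of all genes was -0.014 and 0.042. Of the 27 members that passed at either stage, 8 passed at both. H19, Plagl1 and Nnat were lower at both stages, Grb10 was higher at both, Kcnq1, Phlda2 and Slc22a18 were lower in EB9 and higher in ES cells, and Usp29 was higher in EB9 and lower in ES cells. In EB9 the paternally expressed members gave 1 higher and 4 lower of 17, and the maternally expressed ones 3 higher and 5 lower of 17. In ES cells paternally expressed members gave 6 higher and 6 lower, and maternally expressed ones 6 higher and 3 lower. The effect in EB9 minus the effect in ES cells was tested as well, and passed as positive for 6 members (17.1%, against 12.7% of all genes) and negative for 12 (34.3%, against 17.0%). Of these, Zim1 (positive) and Slc22a3 (negative) were not well above background on any ES array. A fit to the EB9 arrays alone called 5 of 35 members (Mest, Nnat, Plagl1, H19 and Slc22a18, all lower) and 1133 of all genes, against 3211 with all 15 arrays.

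**Figure D1:**
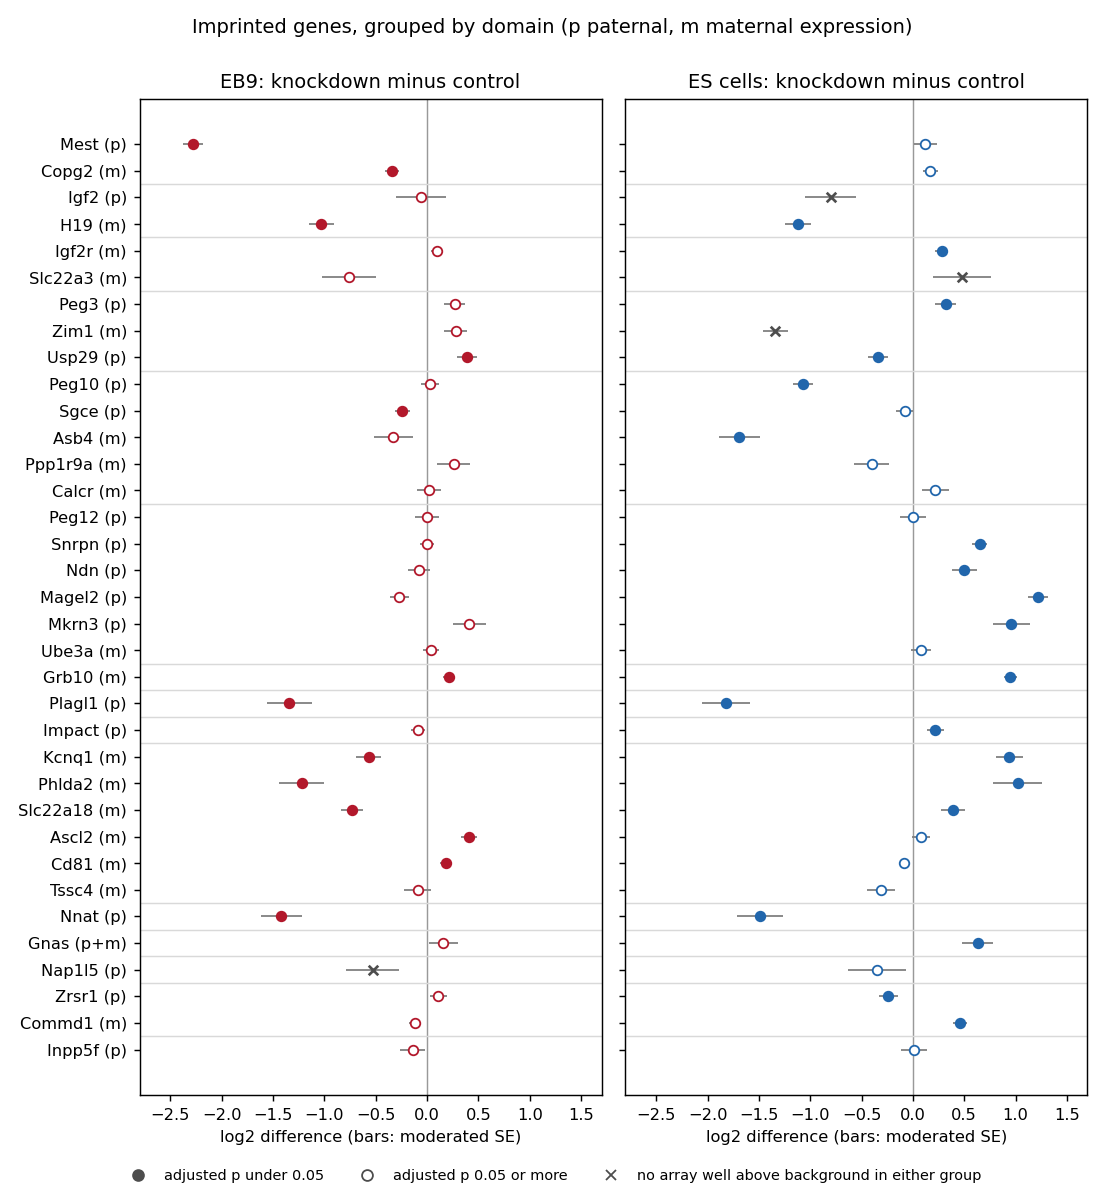
Log2 difference of knockdown minus control for each of the 35 imprinted genes in EB9 (left) and ES cells (right), with the moderated SE as bars. Filled points passed at an adjusted p under 0.05, open points did not, and crosses mark genes not well above background in either group, called or not. Mest is the lowest point in EB9 at -2.28 and Plagl1 the lowest in ES cells at -1.82. In each panel 9 members lie to the left with a call, of which 2 in ES cells, Igf2 and Zim1, are drawn as crosses.

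Mest, a gene for a predicted hydrolase that is active from the paternal copy across embryonic mesoderm, was the member that fell most in knockdown EB9, to close to its level in ES cells. Its brightest probe had log2 levels of 0.55, 0.73, 0.74 and 0.64 in knockdown EB9, 2.63, 2.86, 3.18 and 3.11 in control EB9, 0.57, 0.68, 0.65 and 0.62 in knockdown ES cells, and 0.46, 0.55 and 0.53 in control ES cells. The 4 control EB9 arrays stood apart from all 11 others, and the other 3 groups lay within 0.46 to 0.74. The difference in EB9 was -2.28 (SE 0.10, adjusted p 1.19e-07), or -2.28 with the slide as a block (adjusted p 1.51e-06) and -2.47 to -2.08 within slides. In ES cells it was 0.12 (SE 0.11, adjusted p 0.434). The 2 other Mest probes, from other places along the transcript, gave -2.30 (SE 0.07, adjusted p 6.52e-09) and -2.18 (SE 0.14, adjusted p 4.72e-06) in EB9, over all kept probes. EB9 over ES cells, Mest changed by 0.03 in knockdown (adjusted p 0.768) and by 2.43 in control (adjusted p 1.31e-10), and the knockdown effect in EB9 minus that in ES cells was -2.40 (SE 0.15, adjusted p 6.37e-07).

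Copg2, a coat protein subunit gene that runs toward Mest on the opposite strand, was lower too, by much less. Its brighter probe had log2 levels of 1.30, 1.53, 1.42 and 1.37 in knockdown EB9, 1.57, 1.82, 1.78 and 1.80 in control EB9, 2.12, 2.09, 2.15 and 2.28 in knockdown ES cells, and 2.05, 1.94 and 1.97 in control ES cells. In EB9 the groups did not overlap, with control EB9 1 the lowest of its group. The difference was -0.34 (SE 0.07, adjusted p 0.00708), or -0.34 with the slide as a block (adjusted p 0.00648) and -0.43 to -0.26 within slides. The Copg2 probe nearer to Mest gave -0.30 in EB9 (adjusted p 0.178) and overlapped between the groups. In ES cells Copg2 differed by 0.17 (adjusted p 0.0894). Mest was higher in control EB9 than in control ES cells, whereas Copg2 was lower there by 0.25 (adjusted p 0.00905).

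**Figure D2:**
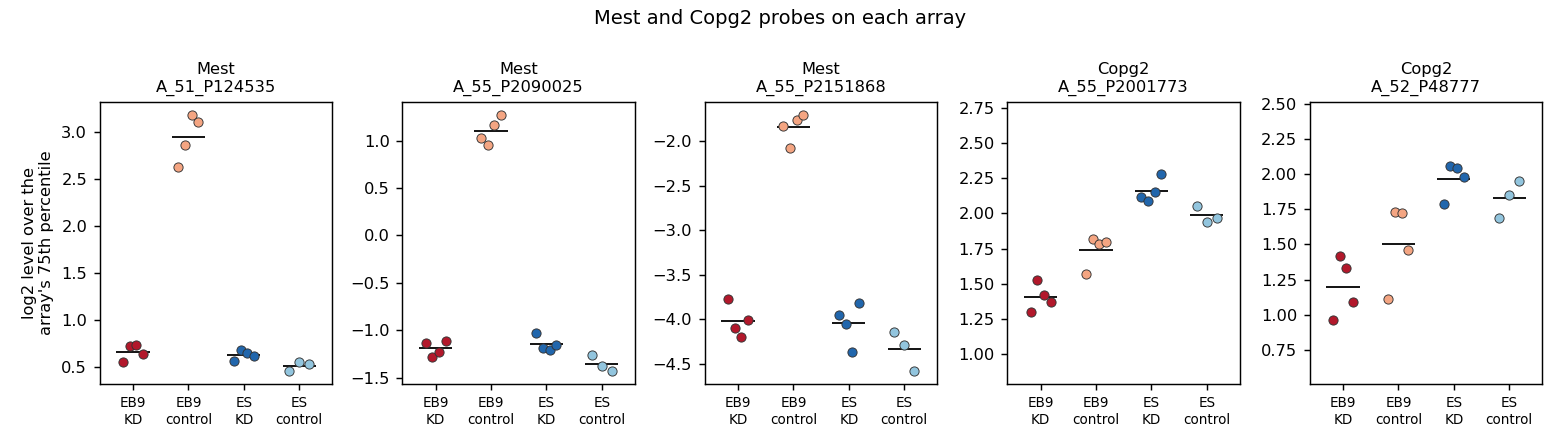
Log2 level of 3 Mest and 2 Copg2 probes on each array (points) with the group mean (line), knockdown left of control. All 3 Mest probes are high in the 4 control EB9 arrays alone, and the Copg2 groups differ by 0.34 and 0.30 in EB9.

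H19, Plagl1 and Nnat were the members lower in knockdown at both stages, each by over 1 on the log2 scale. H19 is a maternally expressed noncoding RNA that carries a microRNA and restrains growth in the mouse. H19 had log2 levels of 2.58, 2.72, 2.21 and 2.33 in knockdown EB9, 3.54, 3.79, 3.28 and 3.35 in control EB9, -1.39, -1.55, -1.62 and -1.51 in knockdown ES cells, and -0.31, -0.40 and -0.49 in control ES cells. Knockdown lay below control on every array within each stage, without overlap. The difference was -1.03 (SE 0.12, adjusted p 0.00032), or -1.03 with the slide as a block (adjusted p 0.000188) and -1.07 to -0.96 within slides in EB9, and -1.12 (SE 0.13, adjusted p 3.48e-05), or -1.09 with the slide as a block (adjusted p 1.43e-05) and -1.14 to -1.08 within slides in ES cells. Its neighbour Igf2, the paternally expressed fetal growth factor, differed by -0.06 in EB9 (adjusted p 0.908) and was not well above background on any ES array. The second H19 probe was not well above background on any array.

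Plagl1 encodes a zinc finger transcription factor that slows the cell cycle. Its brightest probe had log2 levels of -1.90, -2.99, -2.21 and -2.29 in knockdown EB9, -1.33, -1.31, -0.68 and -0.72 in control EB9, -3.05, -2.69, -3.04 and -3.09 in knockdown ES cells, and -1.13, -1.05 and -1.28 in control ES cells. The groups did not overlap at either stage, and EB9 knockdown 1 and 2 spread widest. The difference was -1.34 (SE 0.22, adjusted p 0.00171), or -1.34 with the slide as a block (adjusted p 0.00383) and -1.68 to -0.57 within slides in EB9, and -1.82 (SE 0.23, adjusted p 5.6e-05), or -1.84 with the slide as a block (adjusted p 0.000277) and -1.92 to -1.64 within slides in ES cells. The probe that shares 26 bases with it gave -1.35 in EB9 (adjusted p 0.00242) and -1.75 in ES cells (adjusted p 0.000118). The other 2 Plagl1 probes, on the 5′ side and dimmer, differed by 0.11 and -0.21 in EB9 and by 0.09 and -0.06 in ES cells, with adjusted p from 0.554 to 0.864. Of the 4 probes, the pair near the 3′ end passed and the other 2 did not.

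Nnat, which encodes a small membrane protein of neurons, was dim in all groups but above background on all 15 arrays. Its brighter probe had log2 levels of -5.33, -5.75, -5.79 and -5.86 in knockdown EB9, -3.71, -4.94, -4.30 and -4.10 in control EB9, -5.14, -5.43, -5.13 and -5.22 in knockdown ES cells, and -3.74, -3.77 and -3.73 in control ES cells. No knockdown array reached a control array of its stage. The difference was -1.42 (SE 0.20, adjusted p 0.000849), or -1.42 with the slide as a block (adjusted p 0.000778) and -1.76 to -0.82 within slides in EB9, and -1.49 (SE 0.22, adjusted p 0.000168), or -1.49 with the slide as a block (adjusted p 0.000143) and -1.67 to -1.40 within slides in ES cells. The second probe gave -1.78 (adjusted p 0.000384) in EB9 and -1.52 (adjusted p 0.000263) in ES cells. With normexp background correction the Nnat differences were smaller, at -0.61 in EB9 (adjusted p 0.00528) and -0.61 in ES cells (adjusted p 0.00191). For H19, Plagl1 and Nnat the knockdown effect in EB9 minus that in ES cells was 0.09, 0.48 and 0.07, with adjusted p of 0.793, 0.302 and 0.909.

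**Figure D3:**
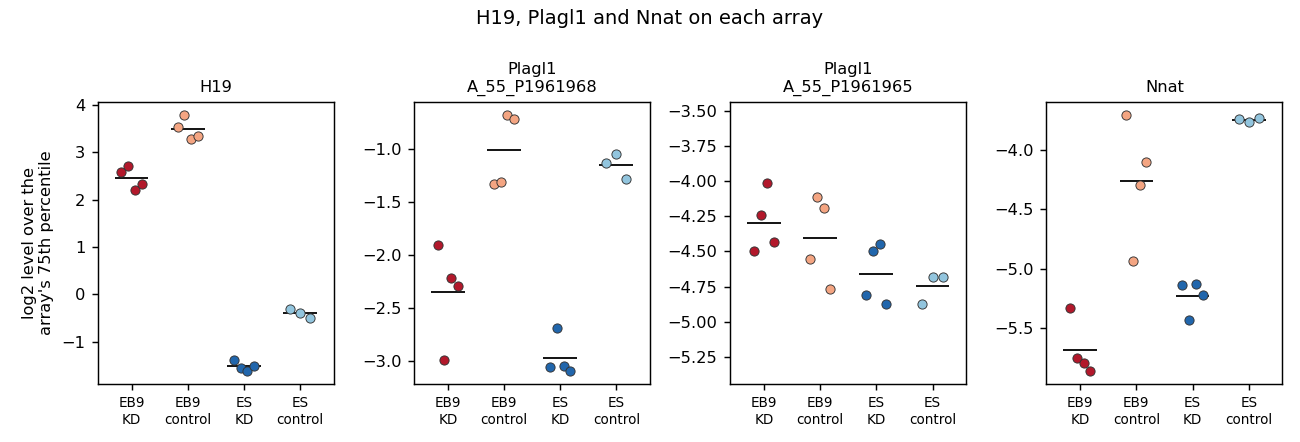
Log2 level of H19, of 2 Plagl1 probes and of Nnat on each array (points) with the group mean (line), knockdown left of control at each stage. H19, Nnat and the 3′ Plagl1 probe A_55_P1961968 are lower in knockdown without overlap at both stages, and the 5′ Plagl1 probe A_55_P1961965 overlaps at both.

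In the Kcnq1 domain, where the noncoding RNA Kcnq1ot1 is read from the paternal copy and the protein genes mainly from the maternal one, 3 neighbours moved in opposite directions at the 2 stages. Phlda2, a small protein that limits placental growth, had log2 levels of 1.34, 2.47, 1.67 and 1.55 in knockdown EB9, 2.42, 3.07, 3.31 and 3.13 in control EB9, 2.24, 2.29, 2.28 and 2.28 in knockdown ES cells, and 1.15, 1.21 and 1.40 in control ES cells. In ES cells knockdown lay above control on every array, and in EB9 it lay below except that knockdown 2 (2.47) was above control 1 (2.42). The difference was -1.22 (SE 0.22, adjusted p 0.0035), or -1.22 with the slide as a block (adjusted p 0.00268) and -1.64 to -0.60 within slides in EB9, and 1.02 (SE 0.24, adjusted p 0.00454), or 1.03 with the slide as a block (adjusted p 0.00327) and 0.88 to 1.10 within slides in ES cells. Its neighbour Slc22a18, a transporter gene, had log2 levels of -1.92, -1.37, -1.79 and -1.65 in knockdown EB9, -1.14, -0.98, -0.92 and -0.79 in control EB9, 0.89, 0.63, 0.70 and 0.81 in knockdown ES cells, and 0.46, 0.31 and 0.35 in control ES cells. The groups did not overlap at either stage. It differed by -0.73 (SE 0.11, adjusted p 0.00118), or -0.73 with the slide as a block (adjusted p 0.0025) and -0.87 to -0.39 within slides in EB9, and by 0.39 (SE 0.12, adjusted p 0.021) in ES cells. The ES call was lost without knockdown ES 1 or 4, or control ES 3 or 4 (log2 difference 0.34 to 0.37, adjusted p 0.0504 to 0.0767).

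Kcnq1, a potassium channel subunit, had log2 levels of -4.12, -3.56, -3.64 and -3.69 in knockdown EB9, -3.34, -3.27, -3.02 and -3.09 in control EB9, -2.81, -2.61, -2.79 and -2.84 in knockdown ES cells, and -3.85, -3.65 and -3.61 in control ES cells. Again no array of 1 group reached the other within a stage. It differed by -0.57 (SE 0.12, adjusted p 0.00675), or -0.57 with the slide as a block (adjusted p 0.00222) and -0.78 to -0.29 within slides in EB9, and by 0.94 (SE 0.13, adjusted p 7.63e-05), or 0.93 with the slide as a block (adjusted p 4.25e-05) and 0.82 to 1.04 within slides in ES cells. The knockdown effect in EB9 minus that in ES cells was -2.24 for Phlda2 (adjusted p 0.000271), -1.52 for Kcnq1 (adjusted p 4.34e-05) and -1.11 for Slc22a18 (adjusted p 0.000265). In the fit to EB9 arrays alone the adjusted p was 0.0519 for Phlda2 and 0.0555 for Kcnq1.

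The other 3 members of the domain did not follow them. Ascl2, a transcription factor that maintains trophoblast progenitors, was higher by 0.41 in knockdown EB9 (SE 0.08, adjusted p 0.0065, or 0.0615 in the fit to EB9 arrays alone). In ES cells it differed by 0.08 (adjusted p 0.56), and the effect in EB9 minus that in ES cells was 0.33 (adjusted p 0.0572, or 0.0445 with the slide as a block). Cd81, a tetraspanin, was higher by 0.18 in EB9 (adjusted p 0.0166), a call lost without knockdown EB9 3 or 4 (0.18 in both cases, adjusted p 0.0508 and 0.0534). That call was also lost with normexp background correction (adjusted p 0.13), the authors' deposited values (adjusted p 0.0617) and EB9 arrays alone (adjusted p 0.0869). In ES cells Cd81 differed by -0.09 (adjusted p 0.156). It passed there as lower with quantile normalisation (-0.22, adjusted p 0.0047), the deposited values (-0.22, adjusted p 0.0249) and array weights (-0.08, adjusted p 0.0341). Tssc4 passed at neither stage, at -0.09 and -0.31 (adjusted p 0.736 and 0.11), though in ES cells it passed with the slide as a block (-0.36, adjusted p 0.00103). The probes of Ascl2, Cd81 and Tssc4 lie on 1 side of Kcnq1 and those of Slc22a18 and Phlda2 on the other, between chr7:150152734 and 150687523 in build mm9.

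The wider list of imprinted genes holds 9 genes with a probe within 500 kb of the members of this domain, a distance chosen after their values were seen. Of these, 2 were higher and 1 lower in knockdown EB9, and 2 higher and 1 lower in knockdown ES cells. Of all genes, 7.96% were higher and 7.20% lower in EB9, and 22.0% higher and 16.5% lower in ES cells. Cdkn1c, a growth-inhibiting inhibitor of cyclin-dependent kinases, moved as Phlda2 did, at -0.62 in EB9 (adjusted p 0.00888) and 0.86 in ES cells (adjusted p 0.000429), with a difference between the stages of -1.49 (adjusted p 0.000135). The noncoding Kcnq1ot1 was higher in knockdown EB9 by 0.64 (adjusted p 0.0315) and differed by 0.39 in ES cells (adjusted p 0.131). Tnfrsf23 was higher in EB9 by 0.85 (adjusted p 8.71e-05) and differed by -0.08 in ES cells (adjusted p 0.545). Tspan32 differed by -0.26 in EB9 (adjusted p 0.691) and was lower in ES cells by 1.24 (adjusted p 0.015), and Dhcr7 differed by -0.16 in EB9 (adjusted p 0.163) and was higher in ES cells by 0.33 (adjusted p 0.00532). Ins2, Nap1l4, Osbpl5 and Th passed at neither stage, so Cdkn1c was the 1 gene of the 9 called in the directions of Phlda2 at both. Of 8 trophoblast markers tested, which share Phlda2's tissue, 4 passed in knockdown EB9, all lower (Eomes -0.89, Elf5 -0.89, Plac1 -0.82 and Hand1 -0.42). The summed level of the list was 19.3 to 27.2 in knockdown EB9 and 25.3 to 30.8 in control EB9, in multiples of the 75th percentile, which overlap. Of the 4, Elf5 was not well above background on any EB9 array, and Eomes is also on the early mesoderm list below. A further 2 of the 10 listed markers were not tested. In ES cells, where Phlda2 was higher, 2 of the 8 were higher (Cdx2 1.03 and Hand1 0.36) and 3 lower (Eomes -1.13, Elf5 -1.10 and Gata3 -0.37), with a median of -0.35 and a summed level of 5.86 to 11.5 in knockdown and 10.4 to 13.1 in control. The part of these cells in the result was not tested, and in whole-culture RNA fewer cells of a type and less RNA per cell cannot be told apart.

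**Figure D4:**
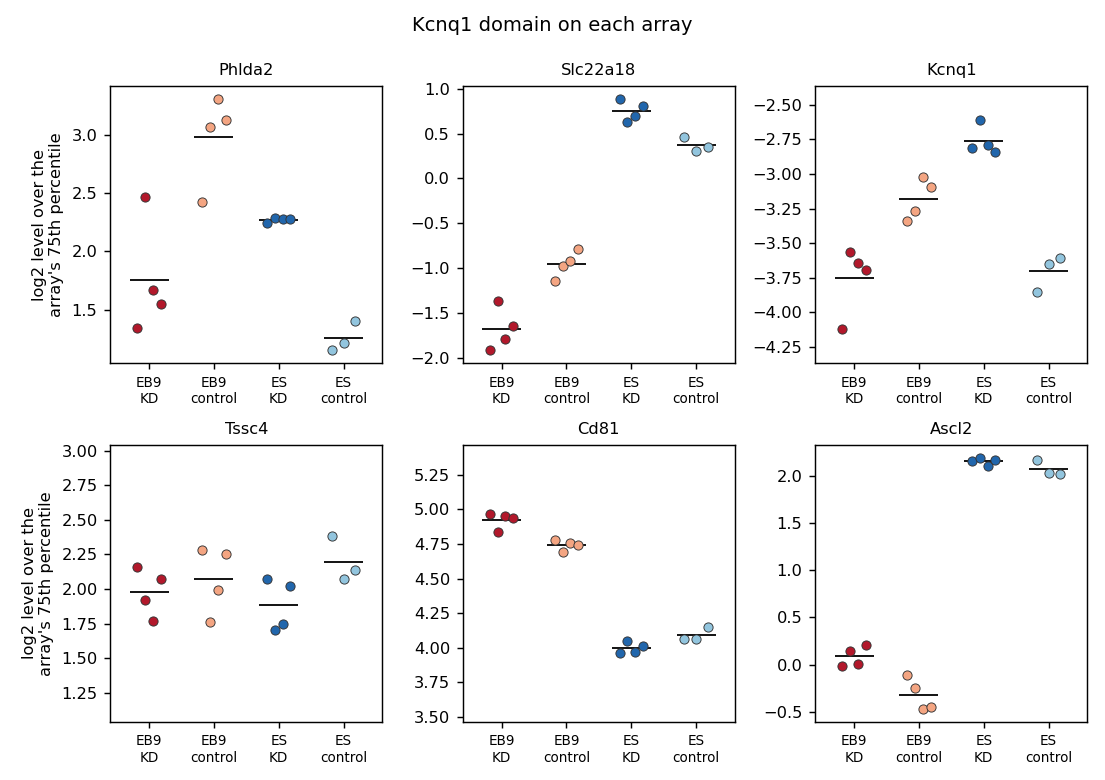
Log2 level of 6 members of the Kcnq1 domain on each array (points) with the group mean (line), knockdown left of control at each stage. Phlda2, Slc22a18 and Kcnq1 are lower in knockdown EB9 and higher in knockdown ES cells, while Tssc4, Cd81 and Ascl2 differ by at most 0.41 within a stage.

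In the Prader-Willi and Angelman domain 4 of the 6 members, all paternally expressed, were higher in knockdown ES cells, where 22.0% of all genes were higher. None of the 6 passed in EB9, where 7.96% of all genes were higher and 7.20% lower, so that count lies near the share of all genes. Magel2, an adaptor of a ubiquitin ligase, had log2 levels of -0.66, -0.73, -0.77 and -0.87 in knockdown EB9, -0.65, -0.58, -0.29 and -0.41 in control EB9, -2.16, -2.21, -2.14 and -2.14 in knockdown ES cells, and -3.59, -3.33 and -3.22 in control ES cells. In ES cells knockdown lay above control on every array, and in EB9 it lay below on every array. The difference was 1.22 (SE 0.10, adjusted p 1.23e-06), or 1.22 with the slide as a block (adjusted p 7.38e-06) and 1.09 to 1.42 within slides in ES cells, and -0.27 (SE 0.09, adjusted p 0.0567), or -0.27 with the slide as a block (adjusted p 0.0387) and -0.49 to -0.01 within slides in EB9, where the slide block brought it past the threshold. The knockdown effect in EB9 minus that in ES cells was -1.49 (SE 0.13, adjusted p 7.68e-06).

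Mkrn3, a ubiquitin ligase gene, was higher in knockdown ES cells by 0.96 (SE 0.18, adjusted p 0.000864). In EB9 it differed by 0.41 (adjusted p 0.112, or 0.0154 with the slide as a block), and the difference between the stages did not pass (-0.54, adjusted p 0.11, or 0.0199 with the slide as a block). Snrpn, a splicing protein gene whose promoter region is the domain's control region, was higher in ES cells by 0.65 (SE 0.07, adjusted p 2.03e-05) and differed by 0.00 in EB9 (adjusted p 0.979). The dimmest of its 3 probes did not follow, at -0.13 in ES cells (adjusted p 0.609). Ndn, a growth-suppressing neuronal gene, was higher in ES cells by 0.50 (SE 0.12, adjusted p 0.0047) and differed by -0.08 in EB9 (adjusted p 0.718). The stages differed for Snrpn (-0.65, adjusted p 0.000408, but -0.29 and 0.0853 with the mean of its 3 probes) and Ndn (-0.58, adjusted p 0.0159). Peg12, also paternally expressed, differed by 0.00 at both stages, and the maternally expressed ubiquitin ligase gene Ube3a by 0.04 in EB9 and 0.08 in ES cells, with adjusted p of 0.557 or more for both genes. Ube3a on control ES 4 was an outlier feature and was left out. Of 9 neuron and neural progenitor markers tested, 2 were higher and none lower in knockdown EB9. In knockdown ES cells 4 were higher, among them Pax6 (1.20), Ncam1 (0.68) and Nes (0.64), and 1 lower (Tubb3 -0.69), with a median of 0.38. The summed level of the list was 7.64 to 13.3 in knockdown EB9, 7.28 to 8.49 in control EB9, 11.1 to 11.7 in knockdown ES cells and 11.1 to 12.2 in control ES cells, and its part in these results was not tested.

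**Figure D5:**
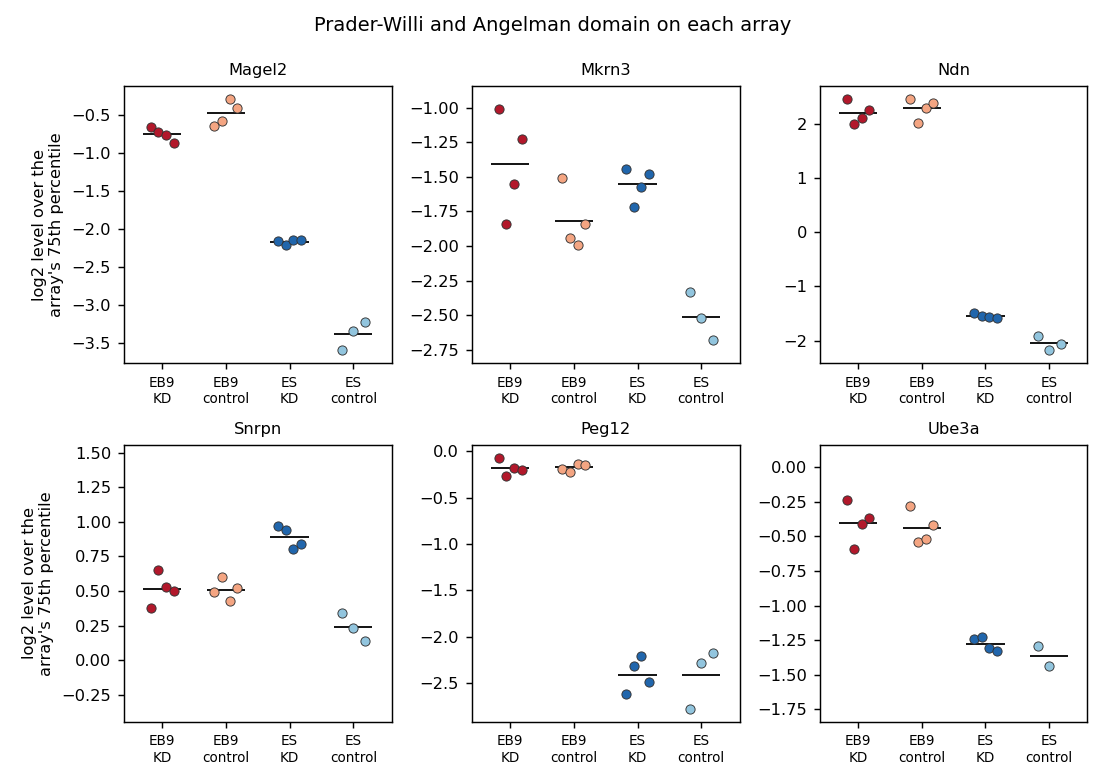
Log2 level of 6 members of the Prader-Willi and Angelman domain on each array (points) with the group mean (line), knockdown left of control at each stage. Magel2, Mkrn3, Ndn and Snrpn are higher in knockdown ES cells without overlap, and Peg12 and Ube3a overlap at both stages.

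In the Peg10 domain the paternally expressed Peg10 and the maternally expressed Asb4 were lower in knockdown ES cells, at levels close to background, and did not pass in EB9. Peg10, a gene derived from a retrotransposon and needed in placenta, had log2 levels of -2.26, -2.32, -2.31 and -2.24 in knockdown EB9, -2.34, -2.41, -2.31 and -2.18 in control EB9, -6.51, -6.17, -6.05 and -6.36 in knockdown ES cells, and -5.10, -5.36 and -5.15 in control ES cells. The ES groups did not overlap, and the EB9 groups did. The difference was -1.07 (SE 0.10, adjusted p 4.87e-06), or -1.08 with the slide as a block (adjusted p 3.09e-05) and -1.41 to -0.81 within slides in ES cells, and 0.03 (SE 0.09, adjusted p 0.897) in EB9. A second probe gave -1.01 in ES cells (adjusted p 7.76e-06). The stages differed by 1.10 (adjusted p 8.76e-05), but by 0.20 with normexp background correction (adjusted p 0.209) and 0.31 with the authors' deposited values (adjusted p 0.0747). Asb4, part of a ubiquitin ligase, had log2 levels of 4.23, 3.51, 3.87 and 3.83 in knockdown EB9, 4.14, 3.89, 4.37 and 4.36 in control EB9, -7.17, -6.48, -6.67 and -7.23 in knockdown ES cells, and -5.17, -5.06 and -5.36 in control ES cells. In ES cells it was well above background on 1 of 4 knockdown arrays and on all 3 control arrays. The difference there was -1.69 (SE 0.20, adjusted p 3.57e-05), or -1.67 with the slide as a block (adjusted p 0.000278) and -2.01 to -1.31 within slides. In EB9 it was -0.33 (SE 0.19, adjusted p 0.287). The second Asb4 probe did not pass in ES cells (-0.20, adjusted p 0.711). With normexp background correction the ES differences of Peg10 and Asb4 shrank to -0.17 (adjusted p 0.106) and -0.25 (adjusted p 0.131), and with the authors' deposited values to -0.33 (adjusted p 0.00926) and -0.43 (adjusted p 0.0164).

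The 3 other members of that domain gave no common picture. Ppp1r9a, an actin-binding protein of synapses, did not pass by its brighter probe (-0.40 in ES cells, adjusted p 0.0882, or -0.44 with the slide as a block, adjusted p 0.0066). It passed as lower in ES cells with the mean of its probes (-1.05, adjusted p 2.93e-05) and with normexp background correction (-0.38, adjusted p 0.0384). The fit to ES arrays alone also called it (-0.40, adjusted p 0.0149), but quantile normalisation and the authors' deposited values did not. Its dimmer probe gave -1.69 in ES cells (SE 0.11, adjusted p 2.29e-07) and 0.04 in EB9 (adjusted p 0.838). Sgce, a membrane protein gene next to Peg10 on the other strand, was lower in knockdown EB9 by 0.24 (adjusted p 0.0397) and differed by -0.08 in ES cells (adjusted p 0.455). That EB9 call was lost on leaving out any 1 array other than knockdown EB9 2, knockdown ES 1 or 3, or control ES 2 or 4 (log2 difference -0.28 to -0.20, adjusted p 0.0516 to 0.116). Calcr, the calcitonin receptor, differed by 0.02 in EB9 and 0.22 in ES cells (adjusted p 0.943 and 0.212). Casd1, a further gene of the domain that is no member, was lower by 0.63 in knockdown ES cells (adjusted p 0.000156) and differed by -0.11 in EB9 (adjusted p 0.459). Pon2 and Pon3, of the same wider list and domain, did not move alike. In ES cells Pon2 was lower (-0.46, adjusted p 0.00465) and Pon3 did not pass (0.04, adjusted p 0.694). In EB9 Pon2 did not pass (-0.27, adjusted p 0.097) and Pon3 was lower (-0.48, adjusted p 0.000433).

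In the Peg3 domain the stages differed for Usp29, and by the test not for Peg3 (-0.06, adjusted p 0.824). Usp29, a deubiquitinase gene, was higher in knockdown EB9 by 0.39 (adjusted p 0.0184) and lower in knockdown ES cells by 0.34 (adjusted p 0.0222), with a difference between the stages of 0.73 (adjusted p 0.00211). Its EB9 call was lost without knockdown EB9 4 (0.37, adjusted p 0.0584), and its ES call without knockdown ES 4 or control ES 2 (-0.31 to -0.30, adjusted p 0.0593 to 0.0803). The ES difference of Usp29 was -0.16 with normexp background correction (adjusted p 0.281) and -0.23 with the authors' deposited values (adjusted p 0.142), and the EB9 call was also lost with the deposited values (0.32, adjusted p 0.0628). Peg3, a zinc finger gene, differed by 0.27 in EB9 (adjusted p 0.0834) and was higher in ES cells by 0.32 (adjusted p 0.0261). In EB9 it passed with normexp background correction (0.25, adjusted p 0.0325) and with the authors' deposited values (0.24, adjusted p 0.0205). Array weights also called it there (0.30, adjusted p 0.0379), but the slide as a block did not (adjusted p 0.0602). The Peg3 call in ES cells was lost without knockdown ES 4 or control ES 2 or 4 (0.24 to 0.33, adjusted p 0.0548 to 0.13). It was also lost with the authors' deposited values (0.13, adjusted p 0.155) and with the mean of its probes (0.34, adjusted p 0.101). Zim1, the maternally expressed zinc finger gene of the domain, differed by 0.28 in EB9 (adjusted p 0.114). In ES cells its fitted difference of -1.34 lies below background on all 7 arrays, as does that of Igf2, -0.80, and both were near 0 with normexp background correction (0.06 and 0.12).

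Among members that stand alone or in small domains, Grb10 was higher in knockdown at both stages. Grb10, an adaptor that inhibits insulin and growth factor signalling, had log2 levels of 0.62, 0.65, 0.77 and 0.74 in knockdown EB9, 0.54, 0.56, 0.41 and 0.43 in control EB9, -2.36, -2.34, -2.37 and -2.45 in knockdown ES cells, and -3.27, -3.37 and -3.36 in control ES cells. The groups did not overlap at either stage. The difference was 0.21 (SE 0.05, adjusted p 0.0189), or 0.21 with the slide as a block (adjusted p 0.0183) and 0.08 to 0.35 within slides in EB9, and 0.95 (SE 0.06, adjusted p 1.26e-07), or 0.96 with the slide as a block (adjusted p 2.06e-06) and 0.91 to 1.03 within slides in ES cells. It was larger in ES cells, with a difference between the stages of -0.74 (adjusted p 2.41e-05). The EB9 call was lost without knockdown EB9 3 or 4 or control EB9 3 or 4 (0.18 to 0.19, adjusted p 0.0597 to 0.0646).

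Commd1, Gnas, Igf2r and Impact were higher in knockdown ES cells and did not pass in EB9. Commd1, a gene of copper handling, was higher in ES cells by 0.46 (SE 0.07, adjusted p 0.000122) and differed by -0.12 in EB9 (adjusted p 0.206), a difference between the stages of -0.59 (adjusted p 0.000371). Zrsr1, a splicing factor gene that lies inside an intron of Commd1 and is read from the paternal copy, went the other way, at -0.24 in ES cells (adjusted p 0.0492) and 0.11 in EB9 (adjusted p 0.397). The Zrsr1 call was lost on leaving out any 1 array other than knockdown EB9 2 or 4, knockdown ES 1 or control ES 3 (-0.25 to -0.17, adjusted p 0.0507 to 0.198). Igf2r, the receptor that clears Igf2, was higher by 0.28 in ES cells (SE 0.06, adjusted p 0.0025) and differed by 0.10 in EB9 (adjusted p 0.278), and the stages did not differ by the test (-0.18, adjusted p 0.118). Impact, a regulator of translation under stress, was higher by 0.22 in ES cells (adjusted p 0.0333, or 0.0558 with the slide as a block), a call also lost without knockdown ES 1 or 4 or control ES 3 or 4 (0.18 to 0.22, adjusted p 0.0831 to 0.118).

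Gnas encodes the stimulatory G protein alpha subunit from a shared 3′ end and, from promoters further upstream, other transcripts that are imprinted in different directions. Its brightest probe, at the 3′ end, was higher by 0.63 in knockdown ES cells (SE 0.15, adjusted p 0.00529) and differed by 0.16 in EB9 (adjusted p 0.522). The effect in EB9 minus that in ES cells was -0.47 (adjusted p 0.108, or 0.00942 with the slide as a block). The other 3 probes lie 49596, 46451 and 8432 bases upstream of it. The farthest was higher in knockdown at both stages, by 0.62 in EB9 (adjusted p 0.0108) and 0.46 in ES cells (adjusted p 0.0253). The middle probe had mean levels of -2.97 in knockdown EB9 and -3.51 in control EB9, with overlap, and was not well above background on any ES array. The nearest was lower in knockdown ES cells by a fitted 1.14 (adjusted p 0.00264), but it was well above background on 0 of 4 knockdown and 1 of 3 control arrays there. The mean of the 4 probes, which takes in the middle and nearest ones, did not pass in ES cells (0.07, adjusted p 0.8).

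8 members passed at neither stage: Calcr, Peg12, Ppp1r9a, Tssc4 and Ube3a (above), and Inpp5f, Nap1l5 and Slc22a3. Inpp5f, a phosphoinositide phosphatase gene, differed by -0.14 in EB9 and 0.01 in ES cells (adjusted p 0.475 and 0.955). Nap1l5, a gene derived from a histone chaperone, was not well above background on any EB9 array and differed by -0.35 in ES cells (adjusted p 0.379). Slc22a3, a transporter gene next to Igf2r, was well above background on 1 of 4 knockdown and 3 of 4 control EB9 arrays and on no ES array. It differed by -0.76 in EB9 (SE 0.26, adjusted p 0.0666, or 0.0191 with the slide as a block).

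Between EB9 and ES cells most members were higher in EB9. In knockdown, 20 of 35 were higher (57.1%, against 33.7% of all genes) and 9 lower (25.7%, against 44.2%). In control, 25 were higher (71.4%, against 33.2%) and 8 lower (22.9%, against 41.5%). The members' median difference was 0.93 in knockdown and 1.26 in control, where all genes had medians of -0.183 and -0.141. In knockdown, quantile normalisation and the authors' deposited values moved the median of all genes by 0.101 and 0.125. Paternally expressed members gave 9 higher and 3 lower of 17 in knockdown and 12 higher and 4 lower in control, and maternally expressed ones 10 higher and 6 lower in knockdown and 12 higher and 4 lower in control. The 2 comparisons share no arrays.

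Asb4, whose per-array levels stand above, was higher in EB9 by 10.75 in knockdown (SE 0.19, adjusted p 1.93e-14) and by 9.39 in control (SE 0.20, adjusted p 1.43e-13). The knockdown value is set against ES cells in which 1 of 4 arrays was well above background, so its size is uncertain. Igf2 had log2 levels of 0.07, -0.30, -0.09 and 0.07 in knockdown EB9, 0.08, -0.23, 0.03 and 0.12 in control EB9, -8.69, -8.68, -7.96 and -8.17 in knockdown ES cells, and -7.15, -8.30 and -7.27 in control ES cells. As no ES array was well above background, its fold is a lower bound, set against the dimmest signal that counted as well above background on each ES array: at least 94.1-fold higher in EB9 with knockdown and at least 116-fold in control. Zim1 had log2 levels of -0.26, -0.62, -0.29 and -0.31 in knockdown EB9, -0.59, -0.66, -0.67 and -0.70 in control EB9, -8.59, -8.45, -8.92 and -8.48 in knockdown ES cells, and -7.43, -7.08 and -7.29 in control ES cells. It too was measured in EB9 but on no ES array, which gives at least 76-fold in knockdown and at least 73.5-fold in control. The adjusted p was 8.35e-12 or lower for both genes in both comparisons. It adds no support to these folds, as both genes passed the filter on dim signal through their EB9 arrays alone.

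Peg3 had log2 levels of 0.65, 0.19, 0.40 and 0.51 in knockdown EB9, 0.22, 0.03, 0.20 and 0.23 in control EB9, -4.82, -4.76, -4.79 and -4.67 in knockdown ES cells, and -5.06, -4.93 and -5.25 in control ES cells. All 8 EB9 arrays lay above all 7 ES arrays, by 5.19 in knockdown (SE 0.10, adjusted p 2.89e-14) and 5.25 in control (SE 0.10, adjusted p 6.19e-14). Ndn had log2 levels of 2.46, 1.99, 2.11 and 2.26 in knockdown EB9, 2.46, 2.01, 2.29 and 2.38 in control EB9, -1.49, -1.55, -1.57 and -1.58 in knockdown ES cells, and -1.92, -2.18 and -2.06 in control ES cells. It was higher in EB9 by 3.75 in knockdown (SE 0.11, adjusted p 1.94e-12) and 4.34 in control (SE 0.12, adjusted p 1.19e-12). Again the stages did not overlap.

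Gnas, by its 3′ probe, had log2 levels of 6.47, 5.79, 6.21 and 6.32 in knockdown EB9, 6.29, 5.79, 6.05 and 6.03 in control EB9, 3.24, 2.98, 3.06 and 3.20 in knockdown ES cells, and 2.67, 2.41 and 2.39 in control ES cells. It was higher in EB9 by 3.08 in knockdown (SE 0.14, adjusted p 1.58e-10) and 3.55 in control (SE 0.15, adjusted p 9.55e-11). Sgce had log2 levels of 2.16, 2.29, 2.14 and 2.32 in knockdown EB9, 2.45, 2.44, 2.41 and 2.60 in control EB9, -0.43, -0.55, -0.62 and -0.60 in knockdown ES cells, and -0.31, -0.50 and -0.60 in control ES cells. Its differences were 2.78 in knockdown (SE 0.07, adjusted p 6.64e-13) and 2.94 in control (SE 0.08, adjusted p 9.42e-13). The stages lay apart for both genes.

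H19, Grb10, Peg10 and Magel2 have their levels given above. H19 was higher in EB9 by 3.98 in knockdown and 3.89 in control, Grb10 by 3.08 and 3.82, Peg10 by 3.99 and 2.89, and Magel2 by 1.40 and 2.90, with adjusted p of 5.25e-09 or lower. The difference of these differences is the stage test already given, which passed for Grb10, Peg10 and Magel2 and not for H19 (adjusted p 0.793). Igf2r, Peg12, Usp29, Ube3a, Calcr, Cd81 and Ppp1r9a were higher in EB9 in both conditions, by 0.65 to 2.24. Slc22a3, measured on no ES array, was at least 1.54-fold higher in control EB9.

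Fewer members were lower in EB9. Ascl2 was lower by 2.07 in knockdown (SE 0.08, adjusted p 3.93e-11) and by 2.40 in control (SE 0.09, adjusted p 2.24e-11). Slc22a18 was lower by 2.44 in knockdown and 1.33 in control, Inpp5f by 1.37 and 1.21, Commd1 by 1.42 and 0.83, and Copg2 by 0.75 and 0.25, all past the threshold. Nap1l5, measured in ES cells only, was at least 1.31-fold lower in knockdown EB9 and at least 1.47-fold lower in control EB9.

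A few members changed with differentiation in 1 condition or in opposite directions. Phlda2 was lower in EB9 by 0.52 in knockdown (adjusted p 0.0485) and higher by 1.73 in control (adjusted p 1.85e-05), and Kcnq1 lower by 0.99 in knockdown (adjusted p 3.35e-06) and higher by 0.53 in control (adjusted p 0.00189). Snrpn was lower by 0.37 in knockdown (adjusted p 0.000201) and higher by 0.27 in control (adjusted p 0.00409). With the mean of its 3 probes the control difference of Snrpn was -0.07 (adjusted p 0.482). The knockdown call of Phlda2 was lost on leaving out any 1 array other than knockdown EB9 2 or control EB9 1 or 3 (-0.53 to -0.38, adjusted p 0.0562 to 0.149). Plagl1 was higher by 0.62 in knockdown EB9 (adjusted p 0.0183), a call lost without knockdown EB9 1 (0.47, adjusted p 0.0629), and differed by 0.14 in control (adjusted p 0.597). Nnat differed by -0.45 in knockdown (adjusted p 0.0577, or 0.0294 with the slide as a block) and was lower by 0.52 in control (adjusted p 0.0472), a call lost on leaving out any 1 array other than knockdown EB9 1 or control EB9 1 or 4 (-0.53 to -0.29, adjusted p 0.0525 to 0.111). Zrsr1 differed by 0.10 in knockdown (adjusted p 0.277) and was lower by 0.25 in control (adjusted p 0.0192), a call lost without control EB9 3 or control ES 2 (-0.21 to -0.18, adjusted p 0.0546 to 0.0976). Impact differed by 0.07 in knockdown and 0.38 in control and Mkrn3 by 0.15 in knockdown and 0.69 in control, and both passed in control alone. Tssc4 passed in neither, at 0.09 in knockdown and -0.13 in control (adjusted p 0.026 in control with the slide as a block).

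Markers of differentiated cells also changed in this comparison, not all in 1 direction. Of 9 neuron and neural progenitor markers tested, 2 were higher and 7 lower in EB9 in knockdown, and 2 higher and 5 lower in control. Trophoblast markers gave 5 higher and 1 lower of 8 in knockdown, and 4 higher and 2 lower in control. Early mesoderm markers gave 5 higher and 2 lower of 8 in knockdown, and 5 higher and none lower in control. Of 10 fibroblast and feeder markers, 9 were higher in EB9 and Thy1 lower, in both conditions, and their summed level was 121 to 180 in knockdown EB9, 113 to 163 in control EB9, 6.44 to 6.85 in knockdown ES cells and 6.05 to 6.49 in control ES cells, in multiples of the 75th percentile. Col3a1, Lum and Postn of that list were not well above background on any ES array. Of 10 visceral endoderm markers, 9 were higher and 1 lower in EB9 in knockdown, and 10 were higher in control. Their summed level was 26.1 to 28.3 in knockdown EB9 and 25.8 to 30.2 in control EB9. In ES cells it was 2.12 to 2.19 in knockdown and 1.77 to 1.83 in control. The part of such cells in the members' rise was not tested. Between knockdown and control, 2 of the 10 fibroblast markers were lower in EB9 (Thy1 -0.56 and Fbln2 -0.43) and none higher. Of the 10 visceral endoderm markers, 3 were lower and none higher in EB9, and 3 lower and 1 higher in ES cells. Of 8 early mesoderm markers tested, 3 were lower in EB9 (T -2.79, Mesp1 -1.67 and Eomes -0.89) and none higher. The summed level of the mesoderm list was 12.2 to 13 in knockdown EB9 and 12.3 to 14 in control EB9, which overlap. In ES cells, where Mest did not pass, 1 of the 8 was higher (Hand2 0.95) and 4 lower (Eomes -1.13, Pdgfra -0.81, Tbx6 -0.51 and Meox1 -0.46), with a summed level of 1.67 to 2.31 in knockdown and 1.66 to 2.63 in control. Mest is known for its expression in mesoderm, and the part of those cells in its fall was not tested.

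On a wider list of 35 further imprinted genes 31 were tested. In knockdown EB9 4 were higher (12.9%, against 7.96% of all genes) and 3 lower (9.7%, against 7.20%), with a median of -0.04. In knockdown ES cells 8 were higher (25.8%, against 22.0%) and 7 lower (22.6%, against 16.5%), with a median of 0.07. These shares lay near those of all genes. In EB9 those higher were Airn (0.76), the noncoding RNA of the Igf2r domain, Kcnq1ot1 (0.64), Rasgrf1 (0.82) and Tnfrsf23 (0.85), and those lower were Cdkn1c (-0.62), Pon3 (-0.48) and H13 (-0.32). In ES cells the largest were Atp10a (1.37) and Rasgrf1 (1.34), both higher, and Peg13 (-1.52) and Tspan32 (-1.24), both lower. EB9 over ES cells, 14 were higher (45.2%, against 33.7%) and 11 lower (35.5%, against 44.2%) in knockdown, and 16 higher (51.6%, against 33.2%) and 8 lower (25.8%, against 41.5%) in control.

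Among 11 genes that set or keep imprints, 2 were higher and 1 lower in knockdown EB9, and 2 higher and 3 lower in knockdown ES cells. The shares of all genes were 7.96% higher and 7.20% lower in EB9, and 22.0% higher and 16.5% lower in ES cells. Dppa3, which protects the maternal genome's methylation in the early embryo, was higher at both stages, by 1.06 in EB9 (SE 0.15, adjusted p 0.000753) and 1.45 in ES cells (SE 0.16, adjusted p 1.74e-05). The methyltransferase gene Dnmt3b was lower by 0.86 in EB9 (SE 0.13, adjusted p 0.00101) and Dnmt3a higher by 0.40 (adjusted p 0.0455). In ES cells Uhrf1, the partner of the maintenance methyltransferase, was higher by 0.30 (adjusted p 0.000494), and Zfp445 (-0.40), Dnmt3l (-0.28) and Ctcf (-0.23), which binds the Igf2-H19 control region, were lower. Zfp57 and Trim28 passed at neither stage, and DNA methylation itself was not measured.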

How the data were processed

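RNA of 15 cultures was hybridised to 1-colour Agilent arrays, from 500 ng of total RNA each per the labels' protocols. The authors extracted the scans with Agilent Feature Extraction 10.7.3.1, per the file headers, and the deposited processed signal is an intensity corrected for background within the array and not scaled between arrays. The authors' deposited value table holds log2 values; normexp correction with an offset of 50 and quantile normalisation of the scanner signals gave the same numbers within 0.000154, which its source does not state.

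From the intensity, log2 values minus the 75th percentile of each array's non-control features were computed, without outlier features (109 to 179 per array), and repeated spots were averaged (39429 probes). Probes well above background on at least 3 arrays of a group were kept (27250), and the brightest probe over all arrays stood for a gene (21185 genes, 79 with a missing value). Tables were read with data.table, version 1.17.8, in R, version 4.3.3. A limma model (limma 3.58.1) was fitted with a mean for each of the 4 groups on all 15 arrays (residual degrees of freedom 11, prior 1.61), with empirical Bayes moderation, two-sided tests and Benjamini-Hochberg adjustment over all genes of a comparison. SEs are moderated. Probes of a gene were also tested in the same model over all kept probes. The fit was tested on simulated data. All arrays are called biological replicates in the labels; p-values measure the spread between arrays, whose number limits the precision.

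Members and gene lists were chosen with earlier results of these data known, and nothing here is independent support for those results. Members are named with all array values where they passed with a log2 difference of at least 1 in a knockdown comparison or in the difference of knockdown effects, or of at least 2 in EB9 over ES cells (at most 10 per comparison). Their domain neighbours stand beside them, and others are given in short. Markers and lists are described by counts, without a set test.

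Replicate numbers pair EB9 knockdown with EB9 control, which lay on the same slides: deviations from group means correlated at 0.30 to 0.55 in the 4 pairs, across genes. ES controls 2, 3 and 4 lay on slides 1, 2 and 3, and with arrays of the same number they correlated at a median of -0.34 (9 pairs, -0.59 to 0.37), whereas pairs on the same slide gave a median of 0.43 (21 pairs). The slide is therefore the block given beside the results. Alternatives were normexp correction, quantile normalisation, the authors' values, no filter and a stricter filter on dim probes, the mean of a gene's probes, slide and replicate blocks, array weights, the groups of a comparison alone, and leaving out each array.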

Additional observations from a re-analysis of the deposited data

Results flagged for a closer look

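For 16 members that were measured at both stages, the effect of the knockdown in EB9 minus that in ES cells passed limma's test of that difference. It was negative for Mest (-2.40, adjusted p 6.37e-07), Phlda2 (-2.24, adjusted p 0.000271), Kcnq1 (-1.52, adjusted p 4.34e-05), Magel2 (-1.49, adjusted p 7.68e-06) and Slc22a18 (-1.11, adjusted p 0.000265). It was also negative, by less, for Grb10 (-0.74, adjusted p 2.41e-05), Snrpn (-0.65, adjusted p 0.000408), Commd1 (-0.59, adjusted p 0.000371), Ndn (-0.58, adjusted p 0.0159), Copg2 (-0.51, adjusted p 0.00232) and Impact (-0.31, adjusted p 0.0367). It was positive for Asb4 (1.36, adjusted p 0.00269), Peg10 (1.10, adjusted p 8.76e-05), Usp29 (0.73, adjusted p 0.00211), Zrsr1 (0.35, adjusted p 0.0417) and Cd81 (0.28, adjusted p 0.00692). That of Asb4 was -0.05 with normexp background correction, 0.16 with the authors' deposited values (adjusted p 0.563) and 0.80 with the mean of its probes (adjusted p 0.112). That of Peg10 was 0.20 with normexp (adjusted p 0.209) and 0.31 with the deposited values (adjusted p 0.0747). That of Snrpn was -0.29 with the mean of its probes (adjusted p 0.0853). The call of Impact was lost on leaving out any 1 array other than knockdown EB9 2, control EB9 1, knockdown ES 2 or 3, or control ES 2 (-0.31 to -0.27, adjusted p 0.0575 to 0.0919). That of Zrsr1 was lost on leaving out any 1 array other than knockdown EB9 2, control EB9 2, knockdown ES 1 or control ES 3 (0.28 to 0.37, adjusted p 0.0545 to 0.111). Zim1 and Slc22a3 also passed (1.62 and -1.24) but were not well above background on any ES array.

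4 single arrays lay far from the rest of their group, of 96 groups looked at, where chance gives about 1 in 20. Plagl1 was at -2.69 on knockdown ES 2, against -3.09 to -3.04 on the other 3 arrays. Zim1 was at -0.62 on knockdown EB9 2, against -0.31 to -0.26. Copg2 was at 1.57 on control EB9 1, against 1.78 to 1.82, and Peg3 at 0.03 on control EB9 2, against 0.20 to 0.23. The knockdown differences of these genes at the same stage were -1.82 for Plagl1 in ES cells, and 0.28 for Zim1, -0.34 for Copg2 and 0.27 for Peg3 in EB9.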

How the results depend on the processing

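The number of members called in EB9 was 13 with all arrays and 5 in the fit to the EB9 groups alone, a fit with fewer samples. Under the other alternatives the counts stayed within 1.5 times: 11 to 19 in EB9, 18 to 26 in ES cells, 28 to 31 for EB9 over ES cells in knockdown, 30 to 34 in control, and 15 to 24 for the difference between the stages. The replicate block called 14 members in EB9, 25 in ES cells, 30 and 33 for EB9 over ES cells in knockdown and control, and 19 for the difference. It added Slc22a3 in EB9 (-0.76, adjusted p 0.0217) and lost no EB9 call. In ES cells it added Copg2, Ppp1r9a, Slc22a3 and Tssc4 and lost Impact (0.23, adjusted p 0.0526). Leaving out 1 array gave 9 to 18 in EB9, 17 to 23 in ES cells, 28 to 30 in knockdown and 31 to 33 in control for EB9 over ES cells, and 15 to 19 for the difference.

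Of 115 called differences, 83 kept their direction and call under every alternative run for them and without each of the 15 arrays in turn, and 4 changed sign. Of the 10 alternatives, all were run for 95 differences, 9 for 19 and 8 for 1, since the difference between the stages has no fit with fewer groups and the stricter filter dropped Slc22a3. With normexp correction these were Igf2 (0.12) and Zim1 (0.06) in ES cells, both below background, and the difference between the stages of Asb4 (-0.05). With the mean of its probes, Snrpn in control EB9 over control ES cells was -0.07. In EB9, H19, Mest, Nnat, Plagl1 and Slc22a18 kept their calls under every alternative and left-out array. In ES cells this held for 12 members: Commd1, Grb10, H19, Igf2r, Kcnq1, Magel2, Mkrn3, Ndn, Nnat, Phlda2, Plagl1 and Snrpn. Signal near background limits Peg10, Asb4, Nap1l5, Slc22a3, Igf2 and Zim1 in ES cells.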
